A study of Mus musculus with 6 samples.

Results

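Regulators of the determination front and of the early somite, 10 in number, were followed in Taf10 mutant and control presomitic mesoderm: Mesp1, Mesp2, Ripply1, Ripply2, Tcf15, Meox1, Meox2, Uncx, Tbx18 and Dmrt2. They were chosen by name as anterior presomitic and somite patterning genes, and all 10 were measured, each by the 1 probe set that the platform annotation pairs with its symbol alone, among 15153 genes in all. Tissue was microdissected from mouse embryos at embryonic day 9.5, at 17 to 19 somites. Each of the 6 arrays read RNA of 3 pooled presomitic mesoderms. The 3 mutant pools were TCre/+;Taf10flox/flox, in which a Cre transgene driven by the T (Brachyury) promoter deletes floxed Taf10 in mesoderm progenitors, and the 3 control pools, labelled WT, were Taf10Flox/+ or Taf10flox/flox with no Cre named in the label, so that floxed alleles were present in both genotypes. TAF10 is a shared subunit of TFIID and SAGA, complexes that help RNA polymerase II start transcription, and the labels set mutant against control pools.

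Somites bud from the anterior end of the presomitic mesoderm. At the determination front, where FGF and Wnt signalling from the tail bud decline and retinoic acid from the somites is met, TBX6 together with Notch signalling switches on Mesp2, which places the next boundary and gives the rostral part of the coming somite its identity. RIPPLY proteins then bind TBX6 and end this programme, and Tcf15, Meox1, Meox2, Uncx, Tbx18 and Dmrt2 mark the somite as it forms and matures.

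The proximal promoters of the Mesp and Ripply genes are shown because these genes lie downstream of TBX6, whose transcript was higher in the mutant pools, as given below. Each is the RefSeq window of build GRCm38.p6 from 250 bases before to 50 bases after the start of the gene, 5′ to 3′ on the strand of the gene, and capitals mark the letters GGTGTG on either strand, the core of the site that T-box factors bind. Mesp1 is at chr7:79793541-79793840 (minus strand), Mesp2 at chr7:79810477-79810776 (plus), Ripply1 at chrX:139782304-139782603 (minus) and Ripply2 at chr9:87015287-87015586 (plus).

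Mesp1: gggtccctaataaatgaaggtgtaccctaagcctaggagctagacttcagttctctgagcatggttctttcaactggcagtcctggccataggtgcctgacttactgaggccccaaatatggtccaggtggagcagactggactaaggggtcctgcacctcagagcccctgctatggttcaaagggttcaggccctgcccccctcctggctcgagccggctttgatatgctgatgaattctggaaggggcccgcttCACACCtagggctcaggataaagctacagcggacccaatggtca

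Mesp2: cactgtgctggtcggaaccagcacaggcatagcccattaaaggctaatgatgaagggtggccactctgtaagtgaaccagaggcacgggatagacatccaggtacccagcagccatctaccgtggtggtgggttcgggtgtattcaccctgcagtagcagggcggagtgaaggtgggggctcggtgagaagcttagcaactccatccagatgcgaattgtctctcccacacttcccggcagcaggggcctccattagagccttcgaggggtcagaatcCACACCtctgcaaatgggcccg

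Ripply1: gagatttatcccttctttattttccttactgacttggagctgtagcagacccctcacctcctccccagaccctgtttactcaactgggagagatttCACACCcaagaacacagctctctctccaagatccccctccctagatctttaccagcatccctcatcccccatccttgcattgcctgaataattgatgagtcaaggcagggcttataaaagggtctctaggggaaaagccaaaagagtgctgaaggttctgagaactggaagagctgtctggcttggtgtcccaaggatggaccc

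Ripply2: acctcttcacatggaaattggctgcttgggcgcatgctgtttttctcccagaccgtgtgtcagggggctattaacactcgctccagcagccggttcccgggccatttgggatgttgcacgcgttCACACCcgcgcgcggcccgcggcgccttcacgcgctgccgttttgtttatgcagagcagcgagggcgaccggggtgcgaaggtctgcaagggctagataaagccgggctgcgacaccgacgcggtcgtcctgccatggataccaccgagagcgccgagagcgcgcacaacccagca

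Each of these 4 windows held GGTGTG once, and so did that of Dmrt2, which made 5 of the 8 genes of the group that have a window in the table. The same letters stood in 19.0% of all 32851 windows. The longer GGTGTGA, which contains it, was in the windows of Mesp1, Ripply1 and Ripply2, against 3.98% of all windows. The match began 154 bases before the start in Ripply1 and 126 bases before it in Ripply2, and at base 7 and base 29 of the transcribed part in Mesp1 and Mesp2. In RefSeq, 0 genes lie between Mesp1 and Mesp2, which stand on opposite strands. Of the other letters searched, also on both strands, CANNTG, the E-box of bHLH factors such as MESP2, was in 7 of the 8 windows, against 72.3% of all windows, and TGGGAA, the core of the site of the Notch effector RBPJ, was in those of Meox2 and Tbx18, 2 of 8, against 25.6% of all windows. The T-box letters were settled on after these windows had been read, out of 4 motifs searched in all, and a match is not a shown site of binding.

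The arrays set limits on what follows. The probe set that stood for Taf10 had log2 levels of 10.40, 10.37 and 10.18 in the mutant pools, against 10.77, 10.61 and 10.69 in the control pools (log2 change -0.37, SE 0.08, limma adjusted p = 0.0400), and the other Taf10 probe set gave 0.11 (SE 0.10, adjusted p = 0.530). Which exons either reads is not known here, so neither checks the deletion. Mutant pool 3 lay farthest from its genotype's mean, at 0.184 log2 units root mean square against 0.0762 to 0.112 for the other arrays. Xist, made from the inactive X chromosome of females, was at a log2 level of 6.32 in control pool 3 and at 11.35 to 12.57 elsewhere, so the sexes were not balanced between pools. Of the presomitic markers fixed for a check of the tissue, 6 of 7 were measured (Tbx6, Msgn1, Hes7, Dll1, Dll3 and Lfng), with log2 levels between 10.47 and 12.77 on all arrays. They differed by genotype: their summed linear intensity was 23758 to 25837 in mutant pools and 18804 to 19945 in control pools. Of the 6, 5 (all but Lfng) were higher in every mutant pool than in any control pool, and 2, Tbx6 and Hes7, passed limma's threshold. Over all genes, the genotypes did not overlap for 32.3% in either direction, and 2.96% passed as higher. The part of these marker differences in the values of the 10 genes was not tested. In bulk tissue, fewer cells of a type and less RNA per cell cannot be told apart.

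None of the 10 genes passed the test for a difference between mutant and control pools. With limma and Benjamini-Hochberg adjustment over all 16311 probe sets with 1 gene symbol, 0 of 10 had an adjusted p under 0.05, where 5.92% of all genes did (2.96% higher and 2.96% lower in the mutant). At an unadjusted p under 0.05, 2 of the 10 passed, Tcf15 and Meox2, both lower, where 22.7% of all genes passed in either direction and 10.9% as lower. The same 2 genes were those whose mutant and control values did not overlap, a state found in 32.3% of all genes. The median log2 change of the group was -0.04, with 4 genes above 0 and 6 below it, against a median of 0.03 over all genes.

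**Figure D1:**
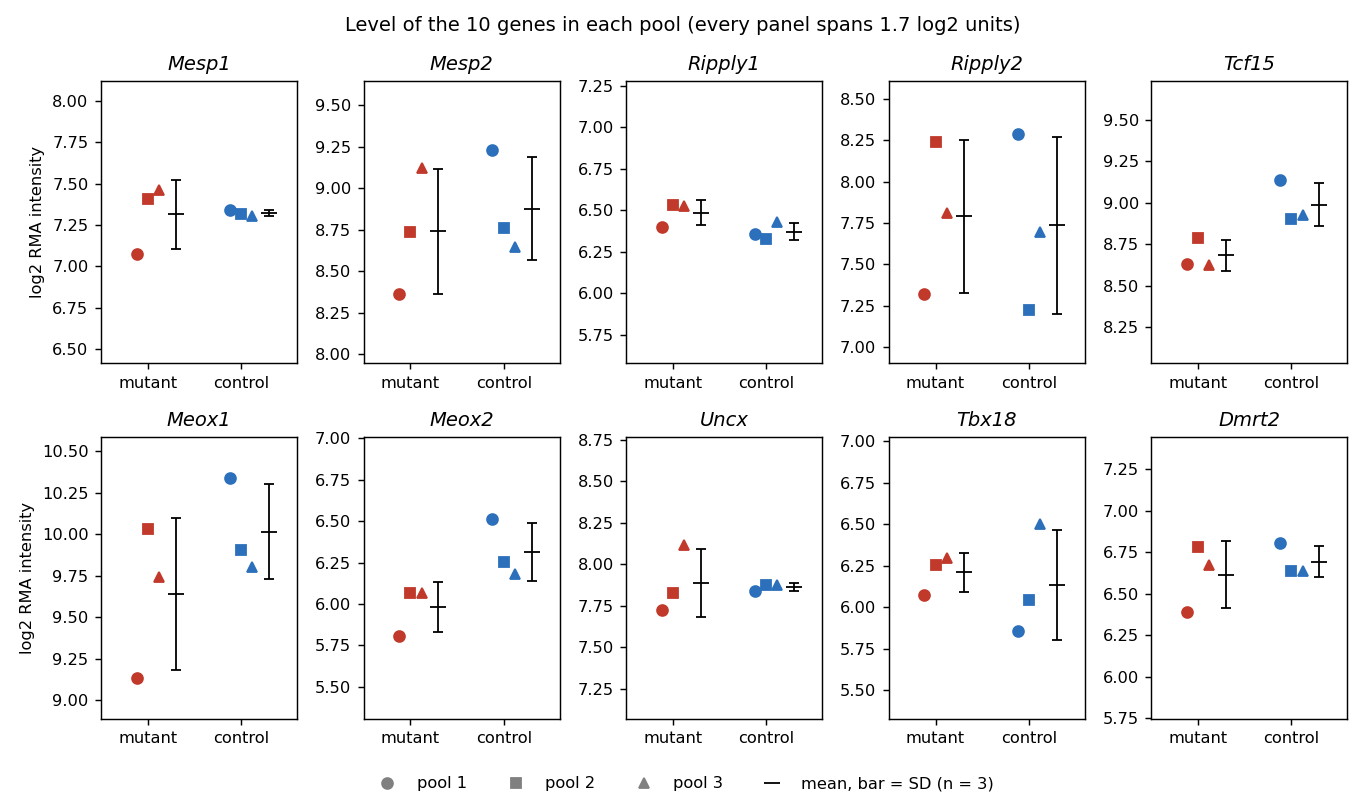
Log2 RMA intensity (y axis) of the 10 genes in each of 3 mutant pools (red, left) and 3 control pools (blue, right), with the mean and SD of each genotype (n = 3) as black bars; symbols give the pool number. The genotypes overlap except for Tcf15 and Meox2, and pool 1 is lowest of the mutant pools in 9 of the 10 panels.

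Mesp2, the bHLH factor that positions the segment boundary, had log2 levels of 8.36, 8.74 and 9.12 in mutant pools 1, 2 and 3, against 9.23, 8.76 and 8.64 in control pools 1, 2 and 3. The ranges overlapped widely, with the lowest value in mutant pool 1 and the highest in control pool 1. Its log2 change was -0.14 (SE 0.21, 95% interval -0.62 to 0.34, limma adjusted p = 0.718), which leaves room for a mutant level between 65.1% and 127% of control. The sign turned without control pool 1 (0.04) or without mutant pool 1 (0.05).

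Mesp1, its neighbouring paralogue, is needed in the earliest mesoderm that leaves the primitive streak and for the heart, and is also transcribed in the anterior presomitic mesoderm. Its log2 levels were 7.08, 7.41 and 7.46 in the mutant pools and 7.34, 7.32 and 7.30 in the control pools. The control values lay within 0.04 log2 units of each other and inside the range of the mutant values, in which pool 1 stood below the others. The log2 change was -0.01 (SE 0.10, 95% interval -0.25 to 0.23, limma adjusted p = 0.975). It was 0.11 without mutant pool 1 and 0.0032 without control pool 1.

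Ripply2, which with TLE corepressors ends Mesp2 transcription by acting on TBX6, had log2 levels of 7.32, 8.24 and 7.81 in the mutant pools, against 8.29, 7.22 and 7.69 in the control pools. Each genotype held a pool above 8.2 and a pool below 7.4, so that pools of the same genotype differed more than the genotype means did. The log2 change was 0.05 (SE 0.29, 95% interval -0.63 to 0.73, limma adjusted p = 0.928), an interval from 64.8% to 166% of control. It was -0.20 without control pool 2 and -0.17 without mutant pool 2, but 0.33 without control pool 1 and 0.29 without mutant pool 1, and 0.46 with arrays weighted by limma's estimate of their quality (limma adjusted p = 0.245).

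Ripply1, the related corepressor that acts with Ripply2 in the somite, gave 6.40, 6.53 and 6.53 in the mutant pools and 6.36, 6.33 and 6.43 in the control pools on the log2 scale. Here all pools were close, and mutant pool 1 lay inside the control range. The log2 change was 0.12 (SE 0.07, 95% interval -0.04 to 0.27, limma adjusted p = 0.358), positive without each array in turn (0.09 to 0.16).

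Tcf15, also called paraxis, is a bHLH factor required for somites to become epithelial. Its log2 levels were 8.63, 8.79 and 8.63 in the mutant pools, against 9.14, 8.90 and 8.93 in the control pools. All mutant values were below all control values, as in 15.1% of all genes. The mutant mean was 80.9% of control (log2 change -0.31, SE 0.09, 95% interval -0.51 to -0.10), and limma's adjusted p of 0.0862 did not pass. An exact permutation test over the pools (two-sided) returned p = 0.1, which no split of 3 against 3 can go below. With each array left out in turn the change ran from -0.36 to -0.23, and the adjusted p from 0.0775 to 0.269.

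Meox2, a homeobox gene of somites and later of limb muscle, gave log2 levels of 5.81, 6.07 and 6.07 in the mutant pools, against 6.51, 6.25 and 6.18 in the control pools. The genotypes did not overlap, with a gap of 0.11 log2 units between the highest mutant and the lowest control pool. Unlike that of Tcf15, this probe set lay below the 40th percentile of level, where RMA can shrink changes. The mutant mean was 79.3% of control (log2 change -0.33, SE 0.11, 95% interval -0.59 to -0.08, limma adjusted p = 0.122, exact permutation p = 0.1). Without each array in turn the change lay between -0.40 and -0.24, and the adjusted p between 0.0682 and 0.356.

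Meox1, which acts with Meox2 in patterning the axial skeleton, had the estimate farthest from 0 in the group and also one of its widest intervals. Its log2 levels were 9.14, 10.03 and 9.74 in the mutant pools and 10.34, 9.90 and 9.80 in the control pools. Mutant pool 2 lay above control pools 2 and 3, and mutant pool 1 lay 0.75 below the mean of the other mutant pools. The log2 change was -0.38 (SE 0.23, 95% interval -0.91 to 0.15, limma adjusted p = 0.367), or 77.0% of control with an interval from 53.3% to 111%. With each array left out in turn it ran from -0.58 (without mutant pool 2) to -0.13 (without mutant pool 1).

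Uncx, the homeobox gene of the caudal compartment of each somite, gave log2 levels of 7.72, 7.83 and 8.12 in the mutant pools and 7.84, 7.87 and 7.88 in the control pools. Mutant pools lay on both sides of the narrow control range. Its log2 change was 0.03 (SE 0.10, 95% interval -0.21 to 0.26, limma adjusted p = 0.897), and -0.09 without mutant pool 3.

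Tbx18, the T-box gene of the rostral compartment, gave log2 levels of 6.07, 6.25 and 6.30 in the mutant pools and 5.86, 6.04 and 6.50 in the control pools. All mutant values were within the control range. Its log2 change was 0.08 (SE 0.15, 95% interval -0.28 to 0.43, limma adjusted p = 0.795), -0.06 without control pool 1 and 0.26 without control pool 3.

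Dmrt2, a DM-domain factor needed for somite patterning and for the dermomyotome, gave 6.39, 6.78 and 6.67 in the mutant pools and 6.80, 6.64 and 6.64 in the control pools on the log2 scale. Only mutant pool 1 lay below the control range. The log2 change was -0.08 (SE 0.11, 95% interval -0.33 to 0.17, limma adjusted p = 0.694), and 0.03 without mutant pool 1.

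**Figure D2:**
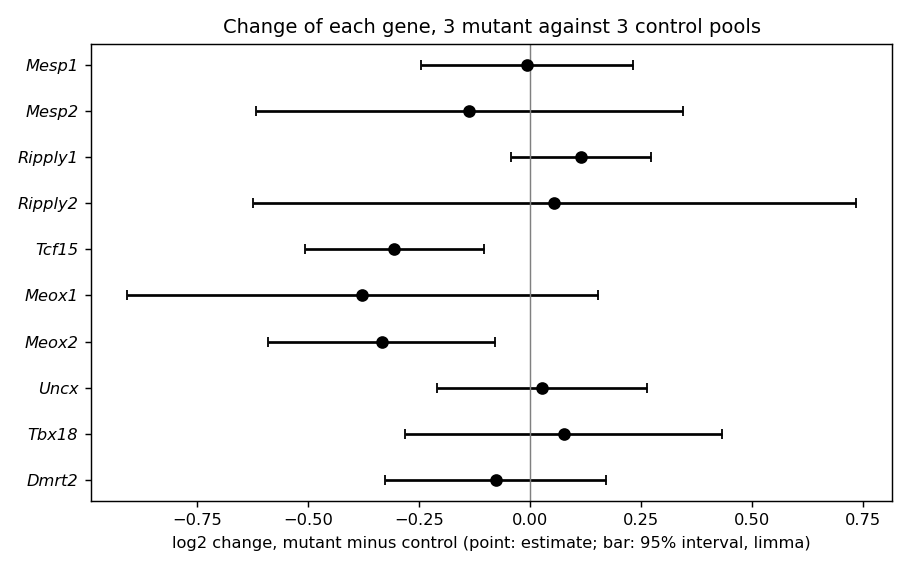
Log2 change of each gene, mutant minus control (x axis), with its 95% interval from limma, 3 mutant against 3 control pools. The intervals of Tcf15 (-0.51 to -0.10) and Meox2 (-0.59 to -0.08) lie below 0, while that of Ripply2 runs from -0.63 to 0.73.

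Pairs of related genes were set against each other within each array, so that a shift of equal size in both cancels. In every pair a gene (Mesp1, Ripply1, Meox2 or Tbx18) lay below the 40th percentile of level, where RMA can shrink changes. Mutant pool 1 minus the mean of mutant pools 2 and 3 was -0.70 for Ripply2 but -0.13 for Ripply1. For Meox1 it was -0.75 and for Meox2 -0.26, for Mesp2 -0.56 and Mesp1 -0.36, for Uncx -0.25 and Tbx18 -0.20. A shift in the same direction thus need not cancel. The log2 difference of Mesp2 minus Mesp1 averaged 1.43 ± 0.20 in mutant pools and 1.56 ± 0.29 in control pools (SD, n = 3 each), a change of -0.13 (exact two-sided permutation p = 0.5). Ripply2 minus Ripply1 averaged 1.30 ± 0.39 in mutant pools and 1.37 ± 0.52 in control pools, a change of -0.06 (exact permutation p = 1). Meox2 minus Meox1 averaged -3.66 ± 0.32 in mutant pools and -3.70 ± 0.11 in control pools, a change of 0.04 (exact permutation p = 1). The caudal gene Uncx minus the rostral gene Tbx18 averaged 1.68 ± 0.13 in mutant pools and 1.73 ± 0.31 in control pools, a change of -0.05 (exact permutation p = 0.9). Without control pool 1 the sign of each of the 4 changes turned (0.035, 0.222, -0.021 and 0.076 in the same order). After adjustment over the 4 pairs every p was 1, and the smallest p that 3 against 3 allows is 0.1. The levels of these differences depend on how each probe set responds and are not read.

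Several of these genes varied strongly between pools of the same genotype. The pooled SD within genotypes had a median of 0.16 log2 units over the 10 genes, against 0.101 over all genes, and 4 of the 10 lay above the 95th percentile of all genes: Ripply2 at the 99.7th, Meox1 at the 99.3rd, Mesp2 at the 98.9th and Tbx18 at the 95.7th. The paralogues Ripply1 and Mesp1 were at the 20.8th and the 77.6th percentile, and Tcf15 was at the 59.2nd. Ripply1 and Mesp1, like Tbx18, lay below the 40th percentile of level, where RMA can shrink changes, so their spread is not directly comparable with that of Ripply2 and Mesp2.

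The same pools tended to be low or high across the group. Mutant pool 1 was lowest of the mutant pools in 9 of the 10 genes, the exception being Tcf15, where pools 1 and 3 were equal to 2 decimals; over all genes it was lowest in 35.6%. Control pool 1 was highest of the control pools in 7 of the 10, all but Ripply1, Uncx and Tbx18; over all genes it was highest in 29.6%. Mutant pool 1 lay below the mean of mutant pools 2 and 3 by 0.75 for Meox1, 0.70 for Ripply2 and 0.56 for Mesp2 on the log2 scale, and by 0.03 at the median of all genes. Control pool 1 lay above the mean of control pools 2 and 3 by 0.83 for Ripply2, 0.53 for Mesp2 and 0.49 for Meox1. The same difference was negative for Tbx18 (-0.41), Uncx (-0.04) and Ripply1 (-0.02), and -0.01 at the median of all genes. The median of the 10 genes relative to the control means was -0.33, 0.05 and 0.11 in mutant pools 1, 2 and 3, against 0.13, -0.08 and -0.05 in control pools 1, 2 and 3. In the list of other anterior presomitic and somite genes, mutant pool 1 was lowest of the mutant pools in 13 of 25 and control pool 1 highest of the control pools in 12 of 25. Aldh1a2, the enzyme that makes retinoic acid in somites and anterior presomitic mesoderm, also stood lowest in mutant pool 1, with log2 levels of 7.69, 8.71 and 8.68 in the mutant pools and 8.28, 8.06 and 8.07 in the control pools. It belongs to the list of inputs to the front described below. In that list mutant pool 1 was lowest of the mutant pools in only 3 of 19 genes (15.8%), and control pool 1 was highest of the control pools in 6 of 19.

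Markers of endothelium and of blood also differed between pools. All 6 endothelial markers listed were measured, and all 6 were highest among the controls in control pool 1, while mutant pool 1 was lowest of the mutants in 2 of the 6. Their summed intensity on the linear scale was 568.8, 1304 and 551.2 in mutant pools 1, 2 and 3, against 1930, 668.4 and 925.5 in control pools 1, 2 and 3. Cdh5, the endothelial cadherin, had log2 levels of 7.16, 9.13 and 6.85 in the mutant pools, against 9.73, 7.49 and 8.20 in the control pools. Control pool 1 and mutant pool 2, the highest in these markers, were also the highest of their genotypes for Ripply2, Meox1, Meox2, Tcf15 and Dmrt2 (for Meox2, mutant pools 2 and 3 were equal to 2 decimals). The other members did not match: Mesp1, Mesp2, Uncx and Tbx18 were highest among the mutants in pool 3. Ripply1, Uncx and Tbx18 were highest among the controls in pool 3. Mutant pool 3, lowest in the endothelial sum, had the highest median of the 10 genes among the mutant pools (0.11). The share of all genes with the same highest pools was not counted. The part of the endothelial marker differences in the values of the 10 genes was not tested. Markers of dermomyotome, myotome and sclerotome, which would come with formed somites, had summed intensities of 1280 to 1434 in mutant pools and 1191 to 1285 in control pools over all 8 genes, and 0 of the 8 passed limma's threshold, with 1, Myf5, at an unadjusted p under 0.05. Pax3, a dermomyotome gene that is not among these 8, lay the other way, at 6.91, 7.18 and 6.95 on the log2 scale in the mutant pools, against 8.22, 7.56 and 7.44 in the control pools (adjusted p = 0.0681). The 4 blood markers measured, of 6 listed, had summed intensities of 16312, 14420 and 3734.5 in mutant pools 1, 2 and 3, against 12972, 9046 and 22010 in control pools 1, 2 and 3, with mutant pool 3 lowest; their part in the values of the 10 genes was not tested either. Among markers of other tissues near the presomitic mesoderm, limma called 0 of 8 for neural tube, 0 of 4 for notochord, 0 of 6 for hindgut, 0 of 6 for surface ectoderm, 0 of 4 for blood, 0 of 4 for neural crest and 0 of 6 for endothelium, of which Krt8 of the surface ectoderm list had an unadjusted p under 0.05. Of 7 genes of intermediate and lateral mesoderm, Lhx1 alone passed, with a log2 change of 1.05 (adjusted p = 0.00158). The array gives no call of detection, so none of these levels shows that a cell type is absent.

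**Figure D3:**
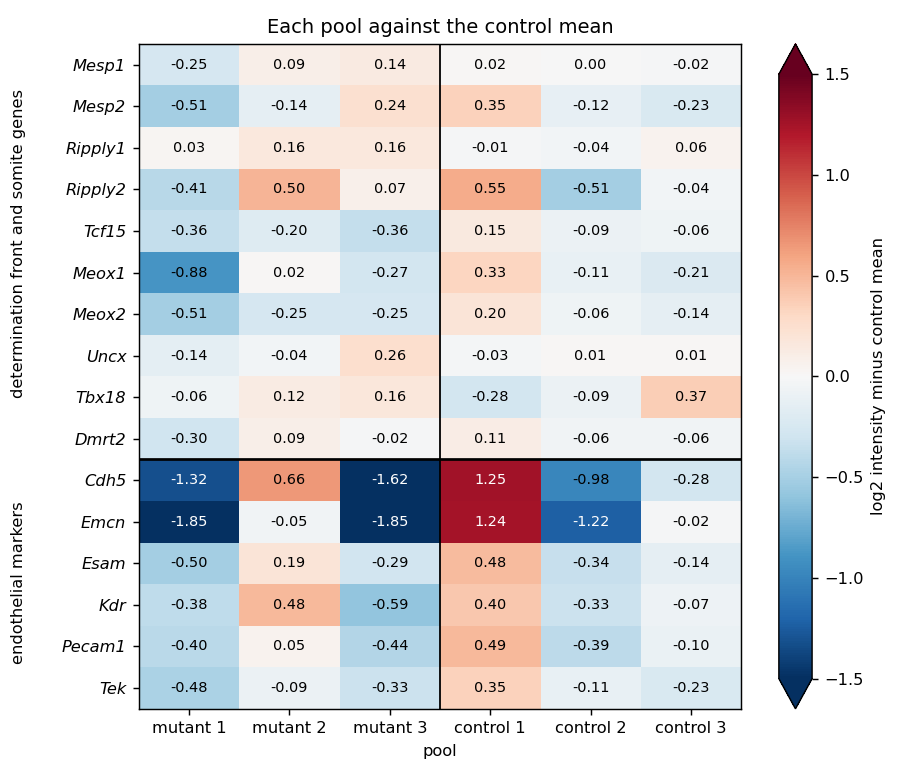
Log2 intensity minus the mean of the control pools for each pool (columns, mutant pools left), for the 10 genes (upper block) and for 6 endothelial markers (lower block); colour and printed values are on the log2 scale. Mutant pool 1 is blue for 9 of the 10 genes, down to -0.88 for Meox1, and Cdh5 runs from -1.62 in mutant pool 3 to 1.25 in control pool 1.

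Among genes that feed the determination front, calls went both ways. Of 20 listed inputs to Mesp2 and to the front, 19 were measured, and 2 rose, 1 fell and 16 did not pass, with a median log2 change of 0.10; over all genes 2.96% rose and 2.96% fell. Tbx6, the T-box activator of Mesp2 and Ripply2, had log2 levels of 12.59, 12.47 and 12.77 in the mutant pools, against 11.95, 11.90 and 12.09 in the control pools, and was 1.54-fold higher (limma adjusted p = 0.0129). All mutant pools lay above all control pools, and mutant pool 1, low for Mesp2 and Ripply2, was not low for Tbx6. Hes7, the oscillating repressor of Notch targets, rose 1.43-fold (adjusted p = 0.00758), and Cyp26a1, which degrades retinoic acid in the tail bud, fell to 6.24, 6.13 and 6.33 on the log2 scale in the mutant pools, against 7.06, 6.86 and 7.01 in the control pools (adjusted p = 0.00643). The Notch ligand genes Dll3 (log2 change 0.29, adjusted p = 0.0572) and Dll1 (0.22, adjusted p = 0.168) and the bHLH gene Msgn1 (0.39, adjusted p = 0.0739) did not pass. Their genotypes did not overlap, as for 32.3% of all genes in either direction. Leaving out an array changed these calls: 0 inputs passed without control pool 1, Cyp26a1 alone passed without control pool 2, and 5 rose and 2 fell without mutant pool 3. The count over all genes moved too, to 41, 67 and 1945 in these settings, against 897 with all arrays. Without mutant pool 1, where 470 of all genes passed, Aldh1a2 passed as well, as higher. With all arrays its limma adjusted p was 0.622. The intervals of Mesp2 (65.1% to 127% of control) and Ripply2 (64.8% to 166%) come from the same 6 arrays, and the difference between the change of Tbx6 and that of either gene was not tested.

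Partners of the group showed 0 changes among 11 of 14 listed genes measured, with 2 of the 11 at an unadjusted p under 0.05, where 22.7% of all genes were, both lower: Pbx3, a homeobox cofactor (log2 change -0.32, limma adjusted p = 0.0550), and Tle1, a corepressor of the Groucho family that RIPPLY proteins recruit (-0.46, adjusted p = 0.127). Tle3 followed (0.26, adjusted p = 0.230). Pbx3 fell without mutant pool 3, where 1945 of all genes passed. Ripply3, the remaining Ripply gene, had a log2 change of 0.0040 (SE 0.12, adjusted p = 0.986).

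Of 28 other anterior presomitic and somite genes, 25 were measured, and 0 rose, 1 fell and 24 did not pass. The median log2 change was 0.08. Cdh11, a cadherin of mesenchymal cells, fell to log2 levels of 10.28, 10.19 and 10.43 in the mutant pools, against 11.04, 10.93 and 11.02 in the control pools (61.6% of control, limma adjusted p = 0.00643). This call was lost without control pool 1, where 41 of all genes passed, against 897 with all arrays. Without mutant pool 3, where 1945 of all genes passed, Epha4 and Eya1 fell too. At an unadjusted p under 0.05, 1 gene was higher and 5 were lower of the 25 (22.7% of all genes passed so in either direction and 10.9% as lower), among them Eya1, a transcriptional coactivator (log2 change -0.53, adjusted p = 0.0560), and Pax3, the dermomyotome and anterior presomitic paired-box gene (-0.73, adjusted p = 0.0681). Efnb2, the ephrin at the segment border, had a log2 change of -0.73 (adjusted p = 0.110) with mutant values of 7.56, 8.28 and 8.26, against control values of 9.16, 8.62 and 8.49. As for Mesp2, Meox1, Meox2 and Dmrt2, its lowest pool was mutant 1 and its highest control 1. Epha4 (log2 change -0.37, limma adjusted p = 0.0826) was instead highest of the mutant pools in pool 1 and lowest of the control pools in pool 1. Its mutant values were 10.98, 10.87 and 10.60, against control values of 11.09, 11.27 and 11.19. Over the 25 genes, mutant pool 1 was lowest of the mutant pools in 13 and control pool 1 highest of the control pools in 12.

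**Figure D4:**
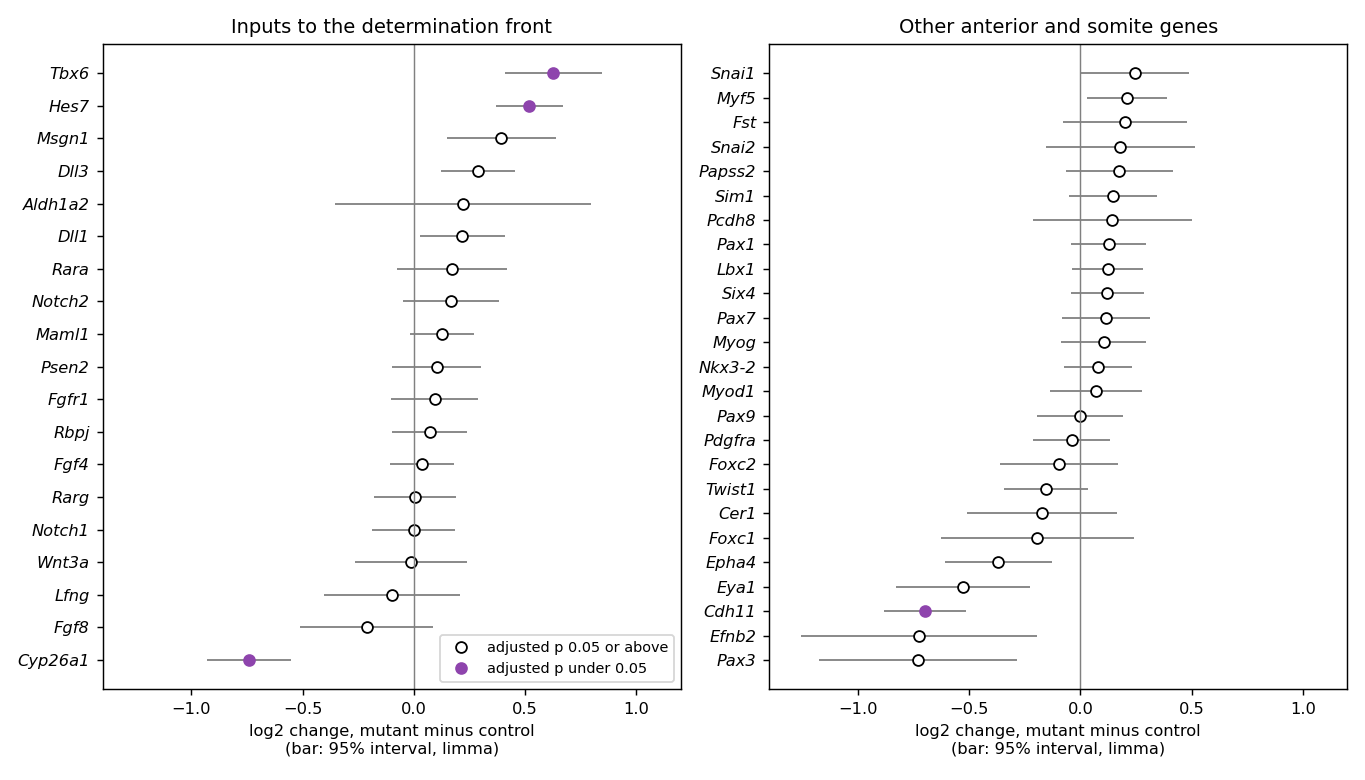
Log2 change, mutant minus control (x axis), with 95% intervals from limma, of 19 inputs to the determination front (left) and 25 other anterior and somite genes (right); filled points have an adjusted p under 0.05. Filled are Tbx6 and Hes7 above 0 and Cyp26a1 and Cdh11 below it.

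The genes whose pattern over the 6 arrays was most like that of Tcf15, by the root mean square difference of log2 values centred on the control mean, were Abca1 (0.026 log2 units), Dcbld1 (0.032) and Hecw2 (0.034), with limma adjusted p-values of 0.115, 0.116 and 0.0969. For Meox2 they were Mir329 (0.048), Nrg1 (0.052) and Peli2 (0.063), with adjusted p-values of 0.151, 0.123 and 0.0642.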

How the data were processed

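Presomitic mesoderm RNA was measured on 6 arrays, 3 mutant and 3 control pools, grouped by their titles. The target was biotinylated cDNA from 150 ng of RNA, per the labels' protocols. The deposited intensity values are the authors' RMA values on a linear scale, per the submitters' processing notes. RMA subtracts background, makes arrays comparable and gives 1 value per probe set, which can shrink changes of dim probe sets. No version or filter is given in the sources used here. Array medians were 307.9 to 317.5.

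Values were turned into log2 and tested by lmFit and eBayes of limma 3.58.1 (R 4.3.3), without covariate or filter, with Benjamini-Hochberg adjustment over 16311 probe sets with 1 gene symbol; 734 with several symbols and 1019 with none here were left out. For 663 genes with several probe sets, the highest mean stood for the gene. All 10 gene IDs matched RefSeq (GRCm38.p6). Named are all 10 genes, Taf10, list genes past the threshold or otherwise the 3 with the smallest p, and the 3 genes most alike to the 2 members with the smallest p. Other genes were named after their values were seen. The members and lists were chosen with earlier results of these data known. The fit was tested on simulated data. Alternatives covered the replicate block, normalization, the filter on level, forms of eBayes, array weights, an Xist covariate, the threshold and each array left out. Pools are biological replicates by their titles, and 6 arrays limit the precision.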

Additional observations from a re-analysis of the deposited data

How the results depend on the processing

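The count of 0 changed genes among the 10 held under most alternatives: it was 2 with array weights (Tcf15 at an adjusted p of 0.0490 and Meox2 at 0.0396), 1 without control pool 3 and mutant pool 3 together (Meox2 at 0.0439), 1 at an adjusted p under 0.1 (Tcf15), and 0 without each array in turn. The count over all genes, 897, was 3608 with array weights, 514 with Xist as a covariate, 2123 without pool 3 of both genotypes, 140 and 1711 at adjusted p under 0.01 and 0.1, and 41 to 1945 without 1 array; the cause was not tested. Ripply1, Tcf15, Meox1 and Meox2 kept their direction throughout. Array weights turned the log2 change of Mesp1 (0.020), Uncx (-0.056) and Dmrt2 (0.022) and moved that of Ripply2 to 0.457, the Xist covariate that of Mesp1 (0.00019), and leaving out pool 3 of both genotypes that of Uncx (-0.081). Without 1 array, or without pool 3 of both genotypes, the change ran from -0.088 to 0.113 for Mesp1, -0.443 to 0.051 for Mesp2, -0.201 to 0.331 for Ripply2, -0.088 to 0.110 for Uncx, -0.063 to 0.258 for Tbx18 and -0.160 to 0.035 for Dmrt2. Quantile normalization turned Meox2 minus Meox1 (-0.047). Without 1 array, or without both of pool 3, that difference ran from -0.121 to 0.198, Mesp2 minus Mesp1 from -0.355 to 0.035, Ripply2 minus Ripply1 from -0.294 to 0.222 and Uncx minus Tbx18 from -0.295 to 0.076. With the filter at the 40th percentile of level, 5 of the 10 genes were tested: Mesp2, Ripply2, Tcf15, Meox1 and Uncx. Mesp1, Ripply1, Meox2, Tbx18 and Dmrt2 lay below the filter, and RMA can shrink changes of such dim probe sets. Deviations of same-numbered pools correlated at 0.134, 0.0769 and 0.316 over 16311 probe sets, all above 0. The labels do not say whether the numbers pair the pools, and these values do not settle it. With the replicate block 1084 genes and 0 of the 10 passed.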
